A study of Mus musculus with 9 samples.

Results

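Replication-dependent histone genes are described here in mouse macrophages exposed to the prostaglandin 15d-PGJ2 or to a related compound written 15d-PGJ2-PC. Members are the rows of the expression table whose symbol is Hist1h, Hist2h, Hist3h or Hist4 followed by a histone class, 65 of 18049 rows. Hist1h2bq and Hist1h2br hold identical values in every library, so 64 distinct rows were counted. By class, the 65 rows are 5 of the linker histone H1, 18 of H2A, 17 of H2B, 12 of H3 and 13 of H4. By cluster, 51 are named Hist1, 10 Hist2, 3 Hist3 and 1 Hist4. Values did not enter the choice of rows. Among the rows, 2 are pseudogenes by their symbol or RefSeq name, Hist3h2bb-ps and Hist1h2al.

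Histones H2A, H2B, H3 and H4 form the core of the nucleosome, and H1 binds the DNA that links nucleosomes. Most of their genes lie in clusters and are switched on in S phase, when newly copied DNA must be packaged. Their mRNAs are the main class of mammalian mRNA without a poly(A) tail: they end just after a short stem-loop, which is bound by the stem-loop binding protein Slbp and cut with the help of the U7 small nuclear RNP. Some histone genes can also give spliced or polyadenylated mRNAs, mainly in cells that have left the cell cycle. Replacement histones such as H3f3a, H2afz and H1f0 come from separate genes with ordinary tailed mRNAs and are made throughout the cell cycle.

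The cells were macrophages grown from bone marrow of C57BL/6 mice aged 8 weeks, cultured in RPMI. The 3 groups were cells given 1 µM 15d-PGJ2 for 6 h, cells given 1 µM 15d-PGJ2-PC for 6 h, and control cells in medium alone for 6 h, with 3 libraries each. 15d-PGJ2 is an electrophilic cyclopentenone prostaglandin, known as a ligand of PPARγ and an activator of the antioxidant factor Nrf2. PC is not spelled out in the labels, and no structure is stated for it. Nor do the labels tell whether replicate libraries were grown as separate cultures. P-values are therefore measured against a spread between libraries that may be technical. The design compares each compound with control and the compounds with each other at the same dose and time.

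The feature that marks these mRNAs is shown first, for some of the members that differed between 15d-PGJ2 and control. A stem-loop of the histone kind was found in the transcript models of 45 rows, in 8 distinct sequences of 16 bases. None was matched in the models used for Hist1h2bc, the member with the highest level, or for Hist1h2br, which both rose with 15d-PGJ2 (below). The form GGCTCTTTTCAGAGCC was found in 26 rows, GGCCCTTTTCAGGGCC in 7 and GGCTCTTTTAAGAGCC in 5. Below, each site is written 5′ to 3′ in the sense of the mRNA, with the stem-loop in capitals and up to 5 flanking bases on each side in lower case, as read from the GENCODE transcripts of GRCm38 (mm10).
Hist1h3d, chr13:23576239-23576264, plus strand: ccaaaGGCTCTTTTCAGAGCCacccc
Hist2h2aa1, chr3:96246027-96246052, plus strand: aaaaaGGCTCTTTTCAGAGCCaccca
Hist1h4i, chr13:22040961-22040986, minus strand: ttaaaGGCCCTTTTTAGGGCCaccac
Hist1h4m, chr13:21812124-21812147, plus strand: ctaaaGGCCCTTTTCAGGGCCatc
Hist1h2bk, chr13:22036295-22036320, plus strand: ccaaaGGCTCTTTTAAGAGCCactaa
Hist3h2a, chr11:58955167-58955192, plus strand: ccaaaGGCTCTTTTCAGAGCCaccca
Hist1h1c, chr13:23739507-23739532, plus strand: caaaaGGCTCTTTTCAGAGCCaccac
The first 5 of these genes had higher values with 15d-PGJ2 and the last 2 had lower values (below). Hist1h3d and Hist2h2aa1, which rose, and Hist3h2a and Hist1h1c, which fell, carry the same 16 bases.

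RefSeq and GENCODE draw the ends of these genes differently. In RefSeq, 42 of the models end 4 to 8 bases after the stem-loop. In GENCODE, 22 models run on for 100 or more bases past it, and 23 stop sooner. The GENCODE model of Hist1h3d extends 752 bases past the stem-loop, that of Hist1h1c 840, that of Hist1h1e 1153 and that of Hist3h2a 1643. The FPKM table gives 1 value per gene and does not separate RNA that ends at the stem-loop from RNA that runs past it.

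Upstream sequence is shown for an H3 gene and an H4 gene that rose with 15d-PGJ2 and for the H2A gene that fell, as the 250 bases before the RefSeq start (GRCm38.p6), 5′ to 3′ on the gene's strand. Capitals mark 3 kinds of match on either strand: the TATA box letters TATAAA, the CCAAT box letters CCAAT, and the octamer ATTTGCAT.
Hist1h3d, chr13:23575513-23575762, plus strand: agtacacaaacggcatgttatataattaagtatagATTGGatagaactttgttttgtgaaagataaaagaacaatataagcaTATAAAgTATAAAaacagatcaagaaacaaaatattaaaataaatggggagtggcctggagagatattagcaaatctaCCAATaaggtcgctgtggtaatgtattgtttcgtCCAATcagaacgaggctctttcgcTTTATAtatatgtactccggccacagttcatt
Hist1h4i, chr13:22041363-22041612, minus strand: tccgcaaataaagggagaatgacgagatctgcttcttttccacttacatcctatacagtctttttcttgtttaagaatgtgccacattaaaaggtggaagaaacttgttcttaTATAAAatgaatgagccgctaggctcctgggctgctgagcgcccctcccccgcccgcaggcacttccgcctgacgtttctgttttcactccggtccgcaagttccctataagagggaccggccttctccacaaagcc
Hist3h2a, chr11:58954435-58954684, plus strand: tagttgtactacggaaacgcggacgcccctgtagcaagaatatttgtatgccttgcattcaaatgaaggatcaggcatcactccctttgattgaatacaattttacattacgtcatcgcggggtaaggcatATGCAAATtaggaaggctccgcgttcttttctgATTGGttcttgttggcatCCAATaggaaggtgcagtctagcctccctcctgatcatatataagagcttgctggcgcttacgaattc
These 3 windows differ in what they hold: Hist1h3d has TATA and CCAAT letters, Hist1h4i has TATA letters and no CCAAT, and Hist3h2a has CCAAT letters and the octamer. Windows were found in the RefSeq table for 58 of the 65 rows (59 windows), against 32851 windows for all genes. TATAAA occurred in 45.8% of the histone windows and in 12.4% of all windows. CCAAT occurred in 81.4% against 33.8%, and in every H1, H2A and H2B window but in 3 of 12 H4 windows. The octamer occurred in 20.3% against 1.6%, in 6 H2A and 6 H2B windows. The core of the antioxidant response element, TGACNNNGC, occurred in 1 histone window, that of Hist2h2bb, or 1.69% against 10.2% of all. A heat shock element (alternating GAA and TTC units, on either strand) occurred in 2 histone windows, those of Hist1h2ac and Hist1h2ad, or 3.39% against 0.466%. No motif searched contains another, and a match is a description of the letters, not of binding.

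A depth of about 5.65 M reads was estimated from the steps between low FPKM values of 80 genes. It is 1 value taken for all 9 libraries, and the depth of each library was not estimated. For a short histone gene, 1 read was worth 0.202 to 0.523 FPKM (fragments per kilobase of transcript per M reads). The 17 macrophage markers in the table summed to 11768 to 12370 FPKM in control, 8726 to 9272 FPKM with 15d-PGJ2 and 10409 to 10739 FPKM with 15d-PGJ2-PC. Of these, 16 were tested, and each was lower with 15d-PGJ2 than in control, while 12 were lower with 15d-PGJ2-PC. Of all tested rows, 25.0% were lower and 22.2% higher with 15d-PGJ2, and 14.1% were lower with 15d-PGJ2-PC. Levels of marker genes of other cell types were also unequal. Summed stromal markers (13 genes, such as Col1a1) stood at 40.8 to 48.0 FPKM in control, 9.41 to 12.2 with 15d-PGJ2 and 8.78 to 9.31 with 15d-PGJ2-PC. The 11 keratinocyte markers stood at 28.6 to 32.8, 4.50 to 6.57 and 2.98 to 5.09 FPKM. Of the 8 keratinocyte markers tested, Krt1, Krt5 and Lor averaged 0 FPKM in both treated groups. With 15d-PGJ2, 7 of the 8 fell and 1 rose, Sfn, named after its values were seen. Summed erythroid markers (9 genes) stood at 23.8 to 33.4 FPKM in control and under 1 FPKM in every treated library. Neutrophil and progenitor markers (12 genes) stood at 35.7 to 37.9 FPKM in control, 17.6 to 21.7 FPKM with 15d-PGJ2 and 27.8 to 32.0 FPKM with 15d-PGJ2-PC; of 5 tested, 4 fell with 15d-PGJ2 and Mpo rose, from 0.093 to 1.69 FPKM. Lymphocyte markers (9 genes) stood at 41.4 to 49.4, 16.03 to 19.9 and 28.1 to 32.2 FPKM, mostly through Cd79b (43.1 FPKM in control), while Cd4 did not pass with 15d-PGJ2. Whether the macrophages or other cells made these RNAs was not tested, nor was the part of other cells in the histone values. In RNA from whole cultures, fewer cells of a type and less RNA per cell cannot be told apart.

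Histone mRNA made up 0.113% to 0.158% of the summed FPKM of a library. Most of it came from few genes. Hist1h2bc, an H2B gene of the Hist1 cluster, alone held 40.5% to 46.5% of the histone sum. Next by mean were Hist1h1c, Hist2h2aa1, Hist3h2a, Hist1h2ao and Hist1h4i. Of the 64 distinct rows, 34 reached 1 FPKM in at least 3 of the 9 libraries and were tested, and 30 did not. Among the 34, 8 had a mean of 10 FPKM or more and 20 a mean under 5 FPKM. Every tested row reached 1 FPKM in libraries of at least 2 groups. However, 10 of the 34 reached it in 3 libraries only with those of the 15d-PGJ2 group, and 24 would have been tested without that group.

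With 15d-PGJ2, genes of the core classes H2A, H2B, H3 and H4 rose, together with 1 H1 gene of few reads, and 2 genes fell. Of the 34 tested rows, 12 were higher than in control (35.3%, where 22.2% of all tested rows were higher) and 2 were lower (5.88%, against 25.0% of all). The other 20 did not pass. The calls come from limma's moderated test on log2(FPKM + 1) with Benjamini-Hochberg adjustment over 11309 rows and a threshold of 0.05. The rows that rose were 1 of 3 tested in H1, 3 of 10 in H2A, 3 of 8 in H2B, 1 of 4 in H3 and 4 of 9 in H4. The median difference over the tested histone rows was 0.69 on the log2 scale, against -0.02 over all tested rows. That median takes in the histone rows that were tested only because of their 15d-PGJ2 libraries. Among the 24 rows that would have been tested without the 15d-PGJ2 libraries, 9 rose and 2 fell. The 3 that rose and were tested only because of those libraries are Hist1h4d, Hist1h2bk and Hist1h1e, and such rows had to be high with 15d-PGJ2 to be tested. With no minimum level, 12 rose and 1 fell, but the 12 were not the same rows. Hist1h4m (limma adjusted p = 0.0697) no longer passed as higher, and Hist1h1c (0.103) no longer passed as lower. The 22.2% and 25.0% above refer to the rows that reached the minimum level, so they are no measure for these 2 counts.

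**Figure D1:**
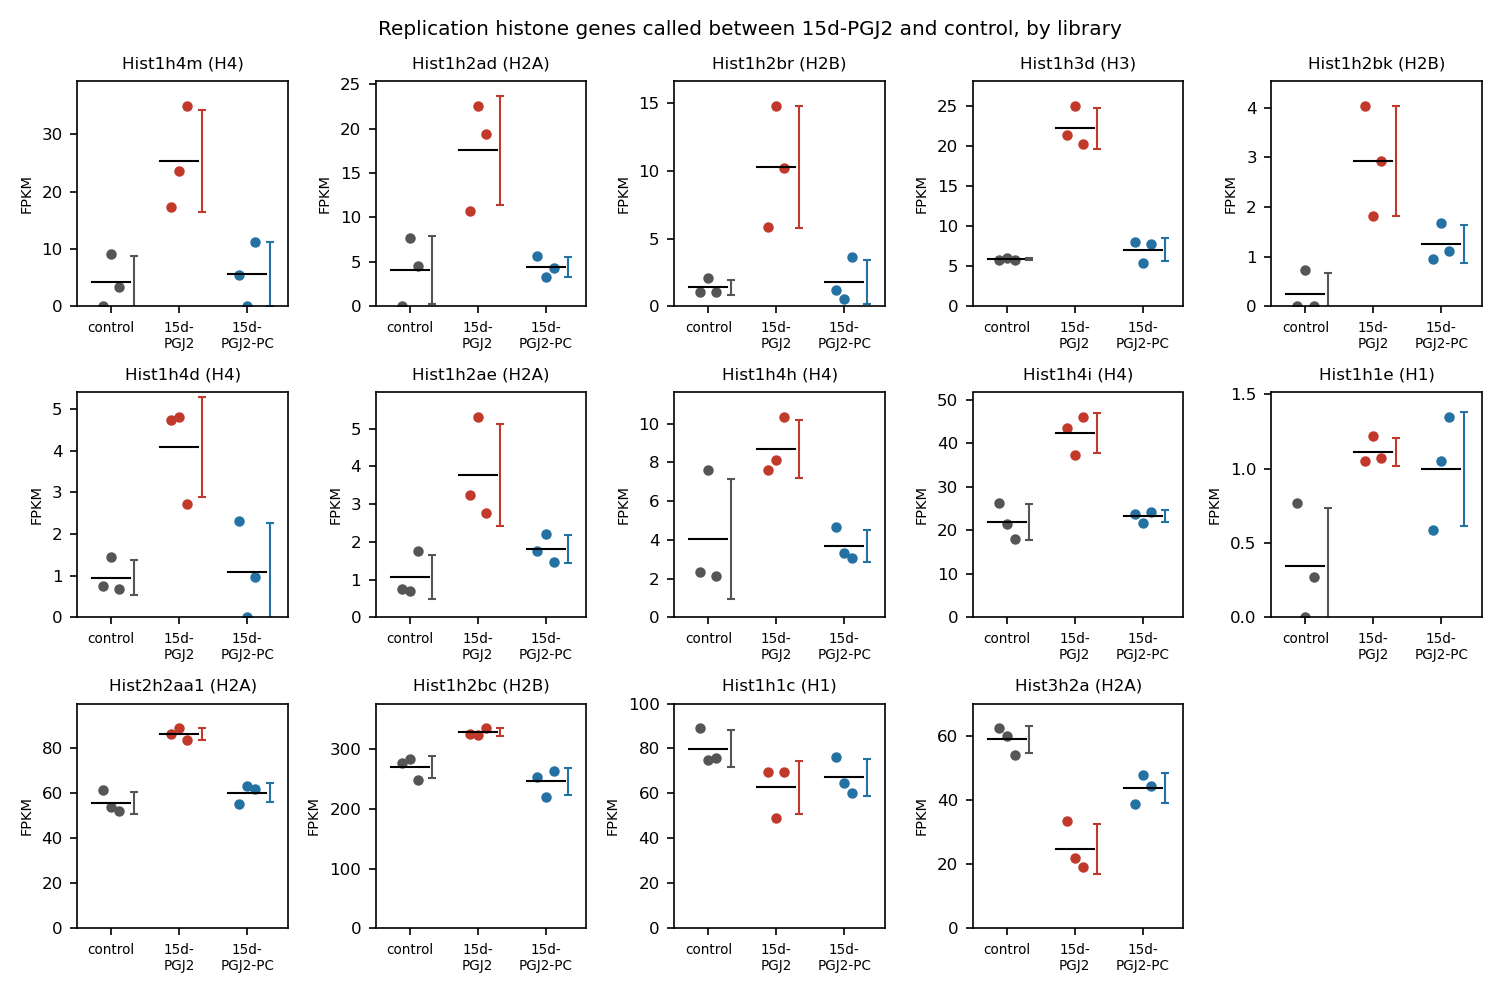
FPKM in each library (points) for the 14 histone genes that differed between 15d-PGJ2 and control, with group means (black lines) and SD (bars at the side, cut at 0). In 12 panels the mean with 15d-PGJ2 is the higher of the pair, and in the last 2, Hist1h1c and Hist3h2a, it is the lower.

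The H3 gene Hist1h3d showed the change with the smallest adjusted p. It stood at 5.74, 6.06 and 5.83 FPKM in the control libraries, at 21.3, 25.0 and 20.2 FPKM with 15d-PGJ2, and at 8.02, 5.42 and 7.76 FPKM with 15d-PGJ2-PC. All 3 libraries with 15d-PGJ2 lay above the other 6. Its mean with 15d-PGJ2 (22.2 ± 2.53 FPKM, SD, n = 3) was 3.77 times that of control (5.88 ± 0.165), a log2 difference of 1.75 with a standard error of 0.13 (limma adjusted p = 9.83e-07). About 58.6 reads per library lie behind the 15d-PGJ2 value and about 15.5 behind the control value. Hist1h3d encodes a replication-coupled H3 and lies in the Hist1 cluster on chromosome 13.

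Hist2h3c2, an H3 gene of the Hist2 cluster on chromosome 3, did not pass against control. It stood at 8.75, 8.98 and 7.76 FPKM in control, at 12.0, 15.0 and 17.0 FPKM with 15d-PGJ2, and at 10.7, 0.00 and 0.00 FPKM with 15d-PGJ2-PC. In the 2 libraries where it was listed at 0, its near-identical copy Hist2h3c1 stood at 10.98 and 7.86 FPKM, and that copy was at 0 in the other 7. Summed, the pair stood at 10.71, 10.98 and 7.86 FPKM with 15d-PGJ2-PC. The control and 15d-PGJ2 libraries did not overlap. For the Hist2h3c2 row alone, the difference between 15d-PGJ2 and control was 0.71 with a standard error of 0.75 (limma adjusted p = 0.466). With near-identical copies summed, an alternative chosen after the data were seen, it was 0.71 with a standard error of 0.14 (limma adjusted p = 0.00164). In a fit of the 6 control and 15d-PGJ2 libraries alone, the difference of the single row had an adjusted p of 0.00151 in limma. In stretches of 50 bases, all of its transcript up to the stem-loop is shared with other genes.

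Among the H4 genes, 4 rose with 15d-PGJ2: Hist1h4i, Hist1h4m, Hist1h4h and Hist1h4d. These genes encode the same kind of core histone, the partner of H3, from separate copies on chromosome 13. Hist1h4i, the H4 gene with the highest mean, stood at 26.3, 21.5 and 17.9 FPKM in control, at 43.6, 37.3 and 46.1 FPKM with 15d-PGJ2, and at 23.8, 21.8 and 24.3 FPKM with 15d-PGJ2-PC. Its lowest library with 15d-PGJ2 lay above the highest of the other 6. The mean was 1.93 times that of control, a log2 difference of 0.93 ± 0.12 (standard error, limma adjusted p = 8.86e-05).

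Hist1h4m varied more. It was listed at 0.00, 9.07 and 3.43 FPKM in control, at 17.4, 23.6 and 35.0 FPKM with 15d-PGJ2, and at 5.54, 0.00 and 11.2 FPKM with 15d-PGJ2-PC. The control library at 0 held 3.11 FPKM of the near-identical copy Hist1h4n, and the 15d-PGJ2-PC library at 0 held 8.21 FPKM of it. Summed, the pair stood at 3.11, 9.55 and 3.43 FPKM in control, and Hist1h4n was at 0 in all libraries with 15d-PGJ2. Libraries with 15d-PGJ2 lay above the other 6 with or without the copy. For Hist1h4m alone the log2 difference was 2.84 with a 95% interval of 0.78 to 4.89 (limma adjusted p = 0.0273). The call was lost without control library 1 (limma adjusted p = 0.104), control library 3 (0.0509), 15d-PGJ2 library 2 (0.0606) or 15d-PGJ2 library 3 (0.0816), and with a pseudocount of 0.1 (0.096). It was also lost with no minimum level (limma adjusted p = 0.0697) and in a fit without an intensity trend (0.0515). With near-identical copies summed, the log2 difference was 2.13, with a 95% interval of 1.33 to 2.94 (limma adjusted p = 0.000662).

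Hist1h4h stood at 2.32, 7.61 and 2.16 FPKM in control, at 7.59, 8.12 and 10.4 FPKM with 15d-PGJ2, and at 4.66, 3.31 and 3.09 FPKM with 15d-PGJ2-PC. Control library 2 exceeded the lowest 15d-PGJ2 value, so these groups overlapped. The log2 difference from control was 1.10 ± 0.32 (standard error, limma adjusted p = 0.017). It did not pass without control library 1 (limma adjusted p = 0.0691), control library 3 (0.0679) or 15d-PGJ2 library 3 (0.0599). Hist1h4d was a gene of few reads, about 2 per library in control and 8.5 with 15d-PGJ2. Its values were 0.74, 1.44 and 0.67 FPKM in control, 4.74, 4.82 and 2.71 FPKM with 15d-PGJ2, and 2.32, 0.00 and 0.98 FPKM with 15d-PGJ2-PC. The 15d-PGJ2 libraries again lay above the other 6, with a log2 difference of 1.38 ± 0.37 (standard error, limma adjusted p = 0.0109, or 0.0975 with a pseudocount of 0.1).

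The H2A genes moved in both directions. Hist2h2aa1, the H2A gene with the highest mean, stood at 61.3, 53.7 and 51.9 FPKM in control, at 86.1, 89.0 and 83.6 FPKM with 15d-PGJ2, and at 55.2, 63.1 and 61.8 FPKM with 15d-PGJ2-PC. It rose by 0.63 ± 0.07 (log2, standard error, limma adjusted p = 2.46e-05), with about 253 reads per library with 15d-PGJ2 against 163 in control. Its copy Hist2h2aa2 was listed at 0 in 8 of 9 libraries. That copy shares all of its stretches with other genes, and Hist2h2aa1 shares 88.6%, so most of their reads cannot be told apart. With the pair summed, the log2 difference was 0.59 ± 0.08 (standard error, limma adjusted p = 0.000158).

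Hist1h2ad and Hist1h2ae rose from lower levels. Hist1h2ad stood at 0.00, 7.67 and 4.58 FPKM in control, at 10.7, 22.6 and 19.4 FPKM with 15d-PGJ2, and at 5.63, 3.31 and 4.30 FPKM with 15d-PGJ2-PC. Its log2 difference from control was 2.29, with a wide 95% interval of 0.88 to 3.70 (limma adjusted p = 0.0127). Hist1h2ae stood at 0.75, 0.70 and 1.75 FPKM in control, at 3.24, 5.32 and 2.76 FPKM with 15d-PGJ2, and at 1.76, 2.21 and 1.47 FPKM with 15d-PGJ2-PC. For both genes the libraries with 15d-PGJ2 lay above the other 6, and the Hist1h2ae difference was 1.21 ± 0.23 (log2, standard error, limma adjusted p = 0.00148).

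Hist3h2a, an H2A gene of the small Hist3 cluster on chromosome 11, fell. Its values were 62.6, 60.0 and 54.1 FPKM in control, 33.6, 21.8 and 19.0 FPKM with 15d-PGJ2, and 38.6, 47.9 and 44.4 FPKM with 15d-PGJ2-PC. The 3 groups did not overlap, with control highest, 15d-PGJ2-PC between and 15d-PGJ2 lowest. The mean in control was 2.37 times that with 15d-PGJ2, a log2 difference of -1.25 ± 0.17 (standard error, limma adjusted p = 0.000112). All stretches of 50 bases in its transcript up to the stem-loop also lie in the first exon of a longer GENCODE transcript of Trim17, on the same strand, and the Trim17 row stood at 0.11 to 1.17 FPKM and was not tested. The other 6 tested H2A rows did not pass. They include Hist1h2ao at 24.8 to 36.1 FPKM in control and 19.7 to 35.5 FPKM with 15d-PGJ2, a row whose stretches are all shared with other genes. Its near-identical copy Hist1h2ap was listed at 0 in 3 of the libraries outside the 15d-PGJ2 group, and summed the pair stood at 26.1 to 38.3 FPKM in control, 34.6 to 46.6 FPKM with 15d-PGJ2 and 48.5 to 50.2 FPKM with 15d-PGJ2-PC.

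Among the H2B genes, Hist1h2bc had the highest level of all 64 rows and a small rise. It stood at 278, 284 and 249 FPKM in control, at 326, 325 and 336 FPKM with 15d-PGJ2, and at 254, 221 and 264 FPKM with 15d-PGJ2-PC. The libraries with 15d-PGJ2 were the 3 highest. The mean was 1.22 times that of control, a log2 difference of 0.28 ± 0.07 (standard error, limma adjusted p = 0.00483). The row combines more than 1 RefSeq transcript, and the GENCODE model used for Hist1h2bc has 2 exons, unlike the single exon of most histone genes.

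Hist1h2br, whose values are also those of Hist1h2bq, stood at 1.09, 2.06 and 1.07 FPKM in control, at 5.83, 14.8 and 10.3 FPKM with 15d-PGJ2, and at 1.24, 0.57 and 3.62 FPKM with 15d-PGJ2-PC. The lowest library with 15d-PGJ2 lay above the highest of the other 6. The mean with 15d-PGJ2 was 7.32 times that of control, a log2 difference of 2.17 ± 0.39 (standard error, limma adjusted p = 0.000894). Hist1h2br and Hist1h2bq share all of their sequence, so their individual levels are uncertain.

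Hist1h2bk was near the floor in control. Its values were 0.00, 0.74 and 0.00 FPKM in control, 4.04, 1.81 and 2.92 FPKM with 15d-PGJ2, and 0.95, 1.68 and 1.11 FPKM with 15d-PGJ2-PC. The groups did not overlap, in the order control, 15d-PGJ2-PC and 15d-PGJ2. The log2 difference between 15d-PGJ2 and control was 1.67 ± 0.27 (standard error, limma adjusted p = 0.00043), and it rests on about 7.6 reads per library against 0.6.

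Hist1h2bj missed the threshold against control. It stood at 2.14, 0.82 and 3.59 FPKM in control, at 6.16, 6.05 and 14.8 FPKM with 15d-PGJ2, and at 4.54, 0.00 and 0.00 FPKM with 15d-PGJ2-PC. The 15d-PGJ2 libraries lay above the other 6, and the log2 difference from control was 1.64 with a 95% interval of 0.26 to 3.02 (limma adjusted p = 0.0509).

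The linker histone genes behaved unlike each other. Hist1h1c, the H1 gene with the highest level, stood at 89.3, 74.8 and 75.6 FPKM in control, at 69.4, 49.2 and 69.6 FPKM with 15d-PGJ2, and at 76.4, 64.8 and 60.2 FPKM with 15d-PGJ2-PC. Its 15d-PGJ2 libraries lay below control, and it fell by 0.36 on the log2 scale, with a standard error of 0.13 and a limma adjusted p of 0.0489, just under the threshold. This call was lost in 9 of 16 alternatives, among them the fits without control library 1 (limma adjusted p = 0.163), control library 2 (0.0642), control library 3 (0.0675) or 15d-PGJ2 library 2 (0.16).

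Hist1h1e, at about 1.4 reads per library in control and 4.7 with 15d-PGJ2, moved the other way. It was tested only because its 15d-PGJ2 libraries reached 1 FPKM. It stood at 0.77, 0.00 and 0.27 FPKM in control, at 1.05, 1.22 and 1.07 FPKM with 15d-PGJ2, and at 0.59, 1.05 and 1.35 FPKM with 15d-PGJ2-PC. Its log2 difference between 15d-PGJ2 and control was 0.69 ± 0.22 (standard error, limma adjusted p = 0.0258). The call was lost without control library 2 (limma adjusted p = 0.0924), control library 3 (0.0639), or any one of the 15d-PGJ2 libraries 1 to 3 (0.0526, 0.0734 and 0.0556). Hist1h1d did not pass, with means of 1.03 ± 0.431 FPKM in control and 0.89 ± 0.325 FPKM with 15d-PGJ2 (SD, n = 3).

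**Figure D2:**
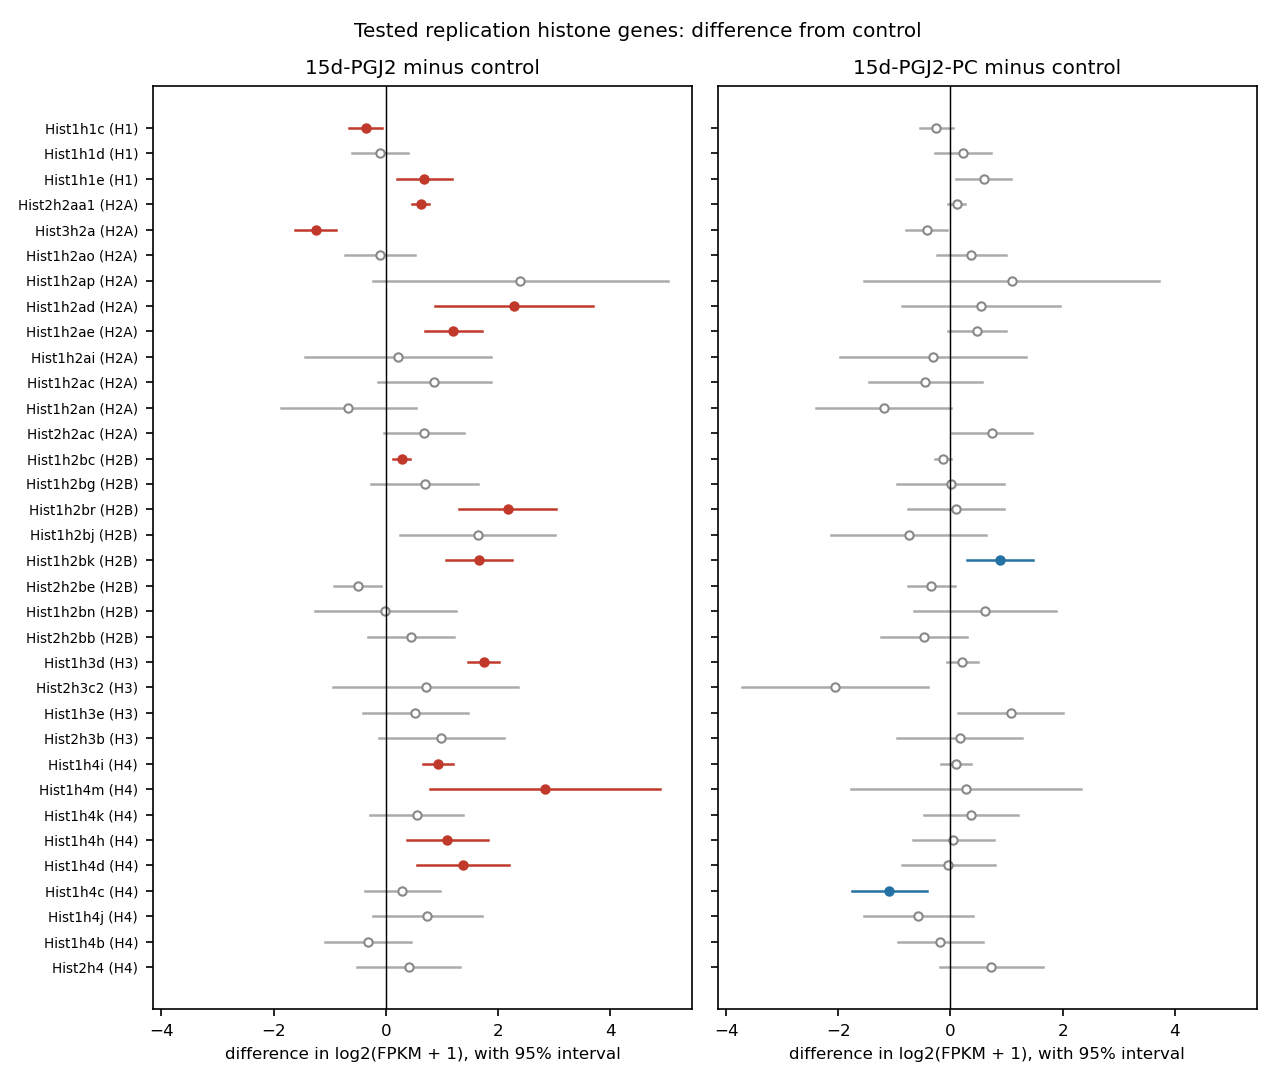
Difference from control in log2(FPKM + 1), with its 95% interval, for the 34 tested histone genes by class, with 15d-PGJ2 on the left and 15d-PGJ2-PC on the right. Filled points passed the test: 14 with 15d-PGJ2 and 2 with 15d-PGJ2-PC.

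With 15d-PGJ2-PC few histone genes differed from control. Of the 34 tested rows 1 was higher (2.94%, against 13.8% of all tested rows) and 1 was lower (2.94%, against 14.1%), and 32 did not pass. The median log2 difference was 0.10 for the histone rows and -0.004 for all tested rows. The row that rose was Hist1h2bk (values above), by 0.89 ± 0.27 (log2, standard error, limma adjusted p = 0.0303). It did not pass without control library 1 (limma adjusted p = 0.102), control library 3 (0.0997), 15d-PGJ2-PC library 2 (0.104) or 15d-PGJ2-PC library 3 (0.0615). Nor did it pass with no minimum level (limma adjusted p = 0.0631) or with the replicate number as a block (0.0512).

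The row that fell with 15d-PGJ2-PC was the H4 gene Hist1h4c. Its values were 2.99, 1.43 and 2.36 FPKM in control, 3.28, 4.04 and 1.80 FPKM with 15d-PGJ2, and 0.00, 0.65 and 1.05 FPKM with 15d-PGJ2-PC. The 15d-PGJ2-PC libraries were the 3 lowest of the 9. The log2 difference from control was -1.09 ± 0.30 (standard error, limma adjusted p = 0.0199), and it rests on about 1.1 reads per library against 4.3. Without control library 1 (limma adjusted p = 0.0764), control library 3 (0.0584) or 15d-PGJ2-PC library 1 (0.0644) the call was lost, as it was with no minimum level (0.0502). With near-identical copies summed, the pair Hist1h2ao and Hist1h2ap was higher with 15d-PGJ2-PC than in control, by 0.57 ± 0.14 (log2, standard error, limma adjusted p = 0.00942), which neither row was alone.

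A missed threshold does not show that a gene stayed the same, but for some members of higher level the intervals were narrow. The log2 difference between 15d-PGJ2-PC and control had a 95% interval of -0.04 to 0.26 for Hist2h2aa1 and of -0.07 to 0.50 for Hist1h3d. It ran from -0.17 to 0.37 for Hist1h4i and from -0.28 to 0.01 for Hist1h2bc. For Hist1h2ao, also of higher level, it was wide, at -0.25 to 0.99, and for Hist1h1c it was -0.55 to 0.05. For Hist2h2aa1, Hist1h3d, Hist1h4i and Hist1h2bc the upper bound lay under the lower bound of the same gene's interval with 15d-PGJ2 (0.47, 1.47, 0.66 and 0.14). For Hist3h2a the interval was -0.80 to -0.06, with an adjusted p of 0.0848 in limma.

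Set directly against each other at 1 µM and 6 h, the compounds differed in 12 of the 34 tested histone rows. With 15d-PGJ2-PC, 11 rows were lower than with 15d-PGJ2 (32.4%, against 8.3% of all tested rows) and 1 was higher (2.94%, against 12.3%), while 22 did not pass. The median log2 difference, 15d-PGJ2-PC minus 15d-PGJ2, was -0.71 for the histone rows and 0.02 for all tested rows. These counts and this median take in rows, such as Hist1h4d, that were tested only because of their 15d-PGJ2 libraries. By class, the lower rows were 2 of 10 tested in H2A, 3 of 8 in H2B, 2 of 4 in H3 and 4 of 9 in H4. One of the H3 rows is Hist2h3c2, whose zeros with 15d-PGJ2-PC are matched by its copy Hist2h3c1. The H3 gene Hist1h3d was lower by 1.53 on this scale (standard error 0.13, limma adjusted p = 1.99e-05), and Hist2h2aa1, Hist1h4i and Hist1h2bc were lower by a log2 difference of -0.52, -0.83 and -0.42. Hist1h2br differed by -2.08 ± 0.39 (standard error, limma adjusted p = 0.00343). Hist3h2a was the row that was higher, by 0.83 ± 0.17 (standard error, limma adjusted p = 0.00529).

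The other 6 lower rows rest on smaller or more scattered values. Hist1h4c differed by -1.39 (limma adjusted p = 0.00754), Hist1h2bj by -2.39 (0.0202) and Hist1h4d by -1.41 (0.0213). For Hist2h3c2 the difference was -2.77 (limma adjusted p = 0.0239), for Hist1h4h -1.05 (0.0433) and for Hist1h2ae -0.73 (0.0481). Summed with its copy, Hist2h3c2 differed by -0.53 ± 0.14 (standard error, limma adjusted p = 0.021), a far smaller difference than that of the row alone. The pair Hist1h4m and Hist1h4n, summed, also passed, at -1.49 ± 0.37 (standard error, limma adjusted p = 0.0148), where Hist1h4m alone did not (0.0796). Of the 6 rows, Hist1h4c passed in every alternative that tested it. Each of the others was lost with no minimum level (limma adjusted p of 0.0607 to 0.109). Hist1h2bj was lost without 15d-PGJ2 library 3 (limma adjusted p = 0.0779) or 15d-PGJ2-PC libraries 2 (0.078) or 3 (0.0735), and Hist1h4d without 15d-PGJ2 libraries 1 (0.0686) or 2 (0.0746). Hist2h3c2 was lost without any one of 15d-PGJ2 libraries 2 and 3 or 15d-PGJ2-PC libraries 2 and 3 (limma adjusted p of 0.065 to 0.0886). Hist1h4h was lost without any 1 of the 6 libraries of the 2 compounds (0.0537 to 0.13), and Hist1h2ae without any 1 of them except 15d-PGJ2 library 3 (0.0628 to 0.169).

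In 12 members the 3 libraries with 15d-PGJ2 lay above all other 6, the controls and 15d-PGJ2-PC alike, as they did in 13.7% of all tested rows. They are Hist1h3d and Hist2h3c2 of H3, Hist1h4i, Hist1h4m and Hist1h4d of H4, Hist2h2aa1, Hist1h2ad and Hist1h2ae of H2A, and Hist1h2bc, Hist1h2br, Hist1h2bj and Hist1h2bk of H2B. Against control alone, 13 tested rows lay wholly above and 2 wholly below, where 26.3% and 28.8% of all tested rows did. Against 15d-PGJ2-PC, 16 members were wholly lower with 15d-PGJ2-PC and 1 was wholly higher, where 16.7% and 20.5% of all tested rows were. In 8 members 15d-PGJ2 was called higher than control and higher than 15d-PGJ2-PC, as it was in 7.64% of all tested rows. These comparisons share the 15d-PGJ2 libraries. Hist1h4d and Hist1h2bk, among the 12 and the 16, were tested only because of those libraries, as was Hist1h4d among the 8. Such rows had to be high with 15d-PGJ2 to be counted.

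Sums by class take in all 64 rows, tested or not. The 12 H3 rows summed to 15.4, 16.1 and 15.5 FPKM in the control libraries, to 41.3, 45.7 and 39.1 FPKM with 15d-PGJ2, and to 22.9, 19.1 and 19.4 FPKM with 15d-PGJ2-PC. The 3 groups did not overlap, and the 15d-PGJ2 mean was 2.69 times that of control. The 13 H4 rows averaged 43.3 ± 5.65 FPKM in control, 99.4 ± 12.9 FPKM with 15d-PGJ2 and 48.0 ± 4.36 FPKM with 15d-PGJ2-PC (SD, n = 3). For H4 the 15d-PGJ2 libraries lay above the other 6, while control and 15d-PGJ2-PC overlapped.

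The H2B sum is mostly Hist1h2bc. Its 16 distinct rows averaged 287 ± 19.8 FPKM in control, 370 ± 11.2 FPKM with 15d-PGJ2 and 266 ± 19.4 FPKM with 15d-PGJ2-PC (SD, n = 3). Without Hist1h2bc the other 15 averaged 16.8 ± 3.33, 41.0 ± 5.51 and 20.2 ± 3.76 FPKM, and the 15d-PGJ2 mean was 2.43 times that of control instead of 1.29 times. The H2A sum, where Hist2h2aa1 was higher and Hist3h2a lower, overlapped between groups at 161 ± 15.6, 182 ± 14.5 and 164 ± 7.40 FPKM. The H1 sum was lower with 15d-PGJ2 in each library (51.8 to 72.5 FPKM) than in control (76.6 to 91.8 FPKM). It is mostly Hist1h1c, which averaged 79.9 FPKM of a sum of 81.8 in control and 62.8 of 65.3 with 15d-PGJ2. The call of that gene was lost in 9 of 16 alternatives, so the sum says little of the other H1 genes. Over the core classes without Hist1h2bc, the sum was 1.54 times that of control with 15d-PGJ2 and 1.07 times with 15d-PGJ2-PC.

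**Figure D3:**
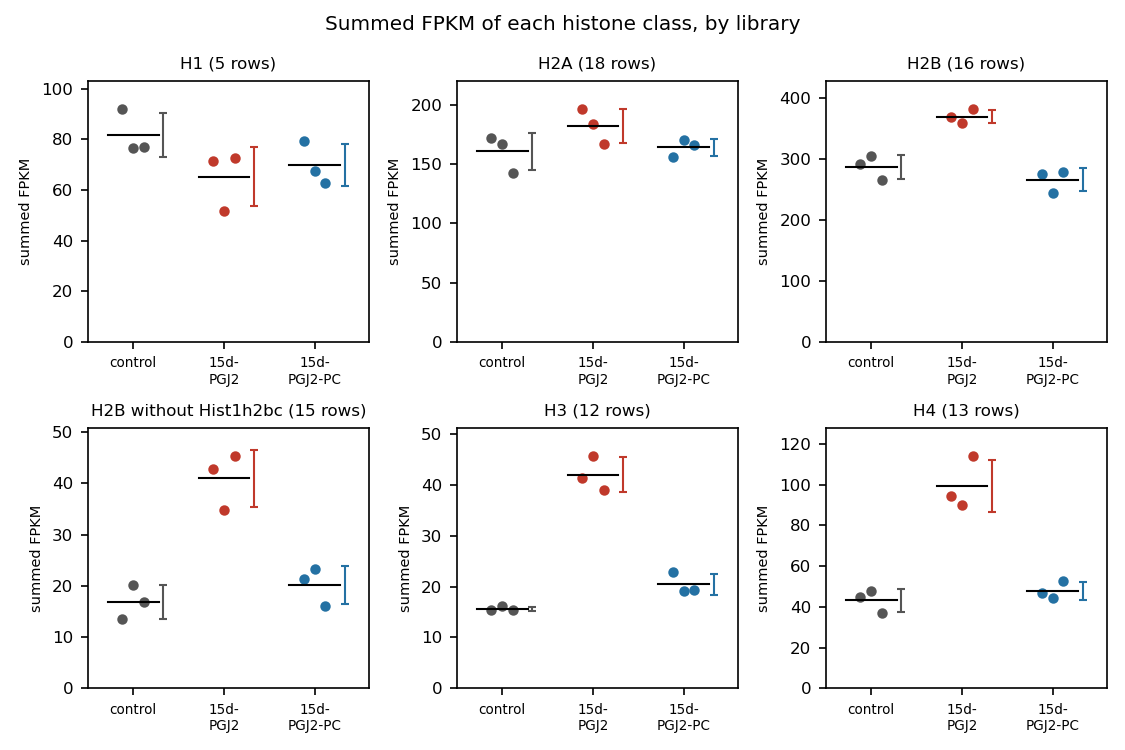
Summed FPKM of all distinct rows of each histone class in each library (points), with group means (black lines) and SD (bars at the side). The 15d-PGJ2 libraries stand above the other 6 for H2B, H3 and H4, overlap with them for H2A, and lie below control for H1. The H1 sum is mostly Hist1h1c.

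The 30 rows that were not tested averaged 0.016 to 2.093 FPKM and were above 0 in a median of 3 of the 9 libraries. Their values summed to 5.57 to 12.7 FPKM in control, 12.1 to 13.2 FPKM with 15d-PGJ2 and 9.06 to 28.0 FPKM with 15d-PGJ2-PC, which overlap. More distinct members were above 0 with 15d-PGJ2 (41 to 50 per library) than in control (34 to 39), while over all rows of the table fewer were (14690 to 14738 against 15165 to 15277). With 15d-PGJ2-PC, 39 to 41 members were above 0.

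How many reads lie behind a value limits what can be seen. Of the 31 tested members with a model short enough for an estimate, 17 rest on a mean of fewer than 10 reads per library and 11 on 20 or more. Of the 10 that rose with 15d-PGJ2 and have an estimate, 4 have fewer than 10: Hist1h2ae, Hist1h4d, Hist1h2bk and Hist1h1e. Near-identical copies add a second limit. In stretches of 50 bases, members shared a median of 61.4% of their transcript (read up to the stem-loop where there was one) with other genes. All stretches were shared in 7 members and none in 4. Of 190 member values under 8 reads, 32.6% came within 0.1 of a whole number of reads. Of the 28 members with 4 or more such values, every one was whole in Hist4h4, Hist3h2ba, Hist1h1a and Hist1h1b, and none in 10 others. How reads that match several genes were counted is not given in the sources used here.

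**Figure D4:**
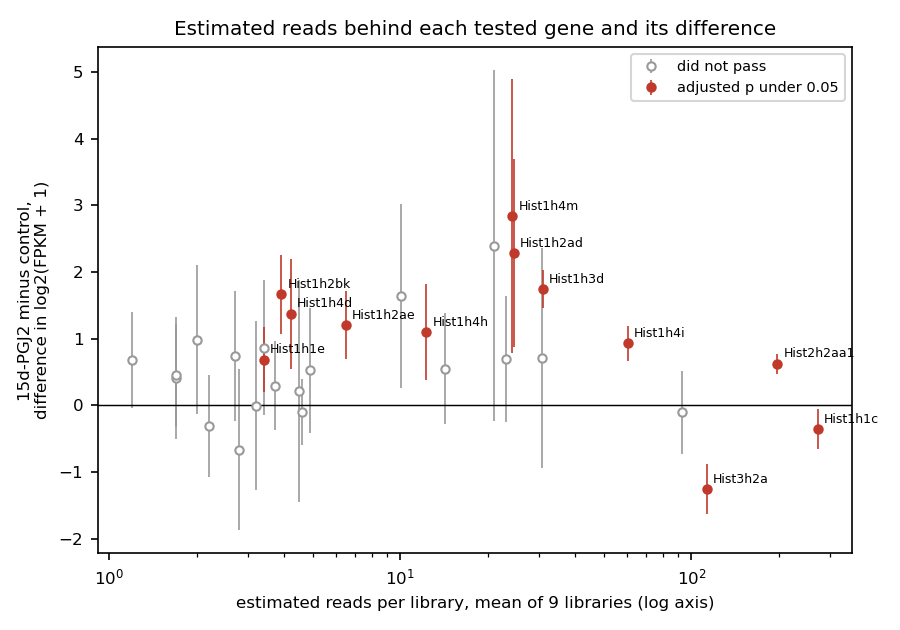
Estimated reads per library (mean of 9 libraries, log axis) against the 15d-PGJ2 minus control difference in log2(FPKM + 1), with 95% intervals, for the 31 tested histone genes with an estimate. Intervals are wide for many genes with few reads, and filled points, which passed the test, occur both under 10 reads and above 100.

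Head-to-head neighbours could stand at very different levels. H2A and H2B genes often lie in pairs that start back to back, and 11 pairs of members start within 500 bases of each other. Hist1h2ac and Hist1h2bc start 240 bases apart, and their control means were 1.09 and 270 FPKM. Hist1h2ae and Hist1h2bg start 180 bases apart, and their means were 1.07 and 7.46 FPKM in control and 3.77 and 12.9 FPKM with 15d-PGJ2. Of that pair Hist1h2ae passed the test, and Hist1h2bg did not. The H2B gene Hist1h2bq starts 168 bases from Hist1h2ao, and their means were 1.41 and 29.0 FPKM in control and 10.3 and 27.3 FPKM with 15d-PGJ2. Hist1h2ap and Hist1h2br, 268 bases apart, averaged 4.50 and 1.41 FPKM in control, 12.0 and 10.3 FPKM with 15d-PGJ2 and 10.4 and 1.81 FPKM with 15d-PGJ2-PC. They are near-identical copies of Hist1h2ao and Hist1h2bq, so the separate levels of these genes are uncertain.

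Among the genes that make and process histone mRNA, some rose and some fell with 15d-PGJ2, near the shares of all tested rows. Of 25 tested factors, 4 rose and 7 fell with 15d-PGJ2, and 14 did not pass (22.2% and 25.0% of all tested rows rose and fell). With 15d-PGJ2-PC, 2 rose and 2 fell (13.8% and 14.1% of all). The median difference with 15d-PGJ2 was -0.03 (log2). Slbp, which binds the stem-loop, fell from 15.9 ± 1.82 to 12.8 ± 1.41 FPKM with 15d-PGJ2 (SD, n = 3, limma adjusted p = 0.026). With 15d-PGJ2-PC it stood at 13.8 ± 0.528 FPKM (limma adjusted p = 0.19). Npat, the coactivator of histone gene clusters, averaged 1.997 FPKM in control and 1.80 FPKM with 15d-PGJ2 (limma adjusted p = 0.555), and its partner Casp8ap2 3.77 and 2.89 FPKM (0.0695); neither passed.

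Others of the list passed in opposite directions. Srrt, which links the cap complex to histone 3′ processing, rose with 15d-PGJ2 from 26.0 to 35.3 FPKM, and with 15d-PGJ2-PC to 38.1 FPKM. Upf1, a helicase of histone mRNA decay, rose from 29.2 to 36.3 FPKM with 15d-PGJ2. Mif4gd, a translation partner of Slbp, fell from 38.8 to 29.1 FPKM, Cpsf2, a subunit of the cleavage complex, from 15.0 to 11.7 FPKM, and Zcchc6, a uridyl transferase, from 25.6 to 20.6 FPKM. Of 16 factors of ordinary poly(A) site processing, 7 rose with 15d-PGJ2 and 4 with 15d-PGJ2-PC, where 22.2% and 13.8% of all tested rows rose. Cstf3 rose from 8.43 ± 0.587 to 13.2 ± 0.824 FPKM with 15d-PGJ2 and to 10.4 ± 0.699 FPKM with 15d-PGJ2-PC, and Fip1l1 from 28.7 ± 1.93 to 41.2 ± 1.33 and 33.6 ± 0.921 FPKM.

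Histone chaperones, which carry histones to and from DNA, moved in both directions. Of 22 tested, 8 rose and 6 fell with 15d-PGJ2 (22.2% and 25.0% of all tested rows did). With 15d-PGJ2-PC, 6 rose and 1 fell (13.8% and 14.1% of all). Nasp, which holds soluble H3 and H4 and also linker histone, rose from 9.34 ± 0.67 FPKM in control to 24.2 ± 0.526 FPKM with 15d-PGJ2 and to 16.3 ± 1.81 FPKM with 15d-PGJ2-PC (SD, n = 3, limma adjusted p = 3e-07 and 6.2e-05). Its level was lower with 15d-PGJ2-PC than with 15d-PGJ2 (limma adjusted p = 0.00071). Nap1l1, a chaperone of H2A and H2B, rose from 112.7 ± 4.22 to 168.5 ± 1.23 and 138.8 ± 5.94 FPKM. Daxx, the chaperone of H3.3, fell from 59.1 ± 5.58 to 22.6 ± 1.65 and 35.2 ± 1.45 FPKM.

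Of 9 tested replacement histone genes, 3 fell with each compound (25.0% of all tested rows fell with 15d-PGJ2 and 14.1% with 15d-PGJ2-PC), H1f0, H3f3a and H2afy in both cases, and the other 6 did not pass. No test of their difference from the replication genes was made. H1f0, the linker histone of cells that have left the cycle, fell from 15.7 ± 0.722 to 5.14 ± 1.23 FPKM with 15d-PGJ2 and to 9.89 ± 1.43 FPKM with 15d-PGJ2-PC (SD, n = 3). H3f3a fell from 426 ± 22.1 to 337 ± 9.18 and 356 ± 11.2 FPKM. Against control, H3f3b (110.0 and 103.5 FPKM with 15d-PGJ2), H2afz (119 and 125 FPKM) and H2afx (11.4 and 13.1 FPKM) did not pass with either compound.

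Of 27 tested genes of DNA replication and S phase, 9 fell and 1 rose with 15d-PGJ2, and 6 fell with 15d-PGJ2-PC. Of all tested rows, 25.0% fell and 22.2% rose with 15d-PGJ2 and 14.1% fell with 15d-PGJ2-PC. The gene that rose was Dbf4, the regulatory partner of the Cdc7 kinase, named after its values were seen. The ribonucleotide reductase genes fell with 15d-PGJ2, Rrm1 from 6.82 ± 0.157 to 3.57 ± 0.261 FPKM and Rrm2 from 3.43 ± 0.339 to 1.48 ± 0.147 FPKM. Mcm6, of the replicative helicase, fell from 12.2 ± 0.565 to 9.23 ± 0.11 FPKM, and Rfc3, of the clamp loader, from 10.1 ± 1.01 to 6.00 ± 1.15 FPKM. Of 20 tested mitosis genes 4 fell with 15d-PGJ2 and 3 with 15d-PGJ2-PC, among them Top2a in each case (6.39 ± 0.328 FPKM in control, 4.10 ± 0.029 and 5.003 ± 0.701 FPKM with the compounds). The median log2 difference with 15d-PGJ2 was -0.18 for the S phase list and -0.31 for the mitosis list.

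RNAs that, like replication histone mRNA, carry no poly(A) tail were listed for 8 other genes, of which 2 were tested. Rn7sk, the small nuclear RNA 7SK, stood at 92.2 ± 16.02 FPKM in control, 421.7 ± 8.04 FPKM with 15d-PGJ2 and 160.0 ± 6.32 FPKM with 15d-PGJ2-PC (SD, n = 3). It rose with each compound (limma adjusted p = 3.35e-08 and 0.000162) and was lower with 15d-PGJ2-PC than with 15d-PGJ2 (9e-06). Rpph1, the RNA of RNase P, stood at 8.75 ± 2.87, 36.8 ± 2.12 and 12.5 ± 1.39 FPKM, and rose with 15d-PGJ2 (limma adjusted p = 6.58e-06). With 15d-PGJ2-PC its adjusted p was 0.0643. Summed over the 8, the level was 81.1 to 118 FPKM in control, 455 to 475 FPKM with 15d-PGJ2 and 166 to 183 FPKM with 15d-PGJ2-PC. The 15d-PGJ2 libraries, highest for these RNAs, also had the highest H2B, H3 and H4 sums. Their H2A sum overlapped the other groups, and their H1 sum, mostly Hist1h1c, lay below control. The part of RNA composition or of the capture of untailed RNA in the histone differences was not tested.

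**Figure D5:**
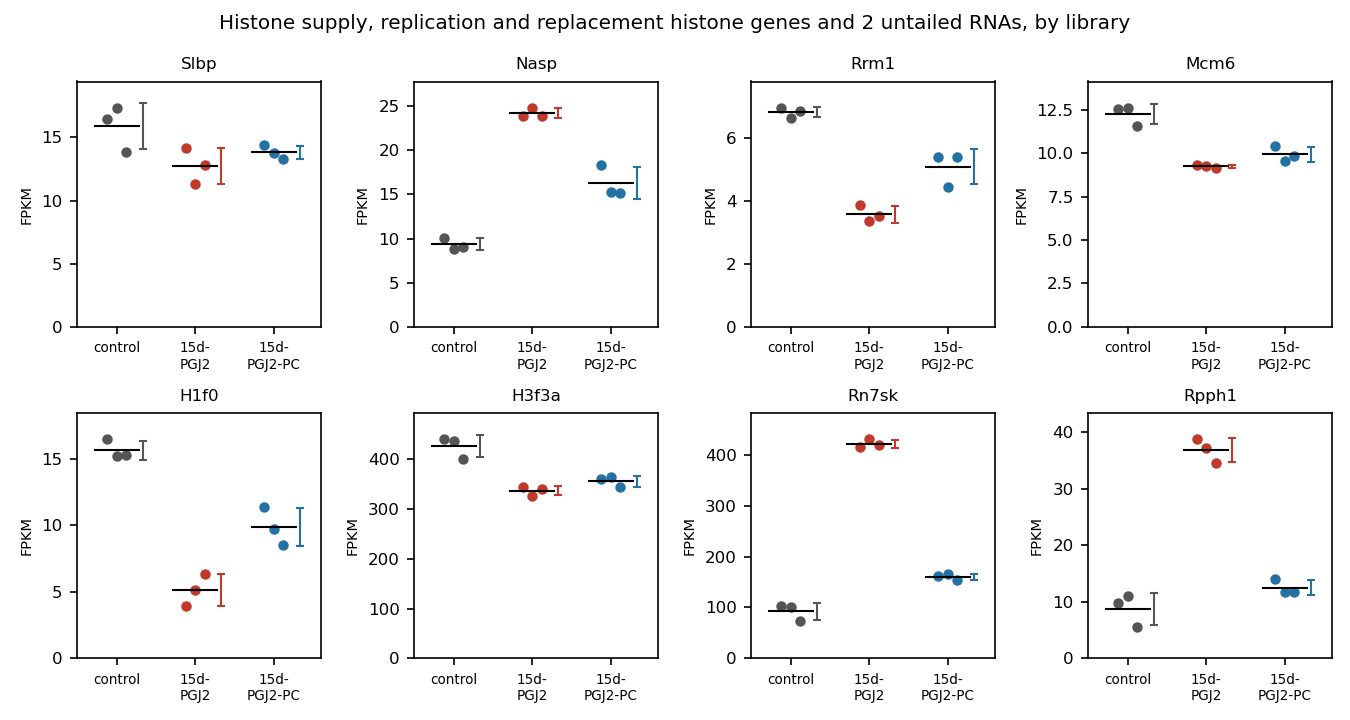
FPKM by library (points), with group means (black lines) and SD (bars at the side), for the stem-loop binding protein gene Slbp, the chaperone gene Nasp, the replication genes Rrm1 and Mcm6, the replacement histone genes H1f0 and H3f3a, and the untailed RNAs Rn7sk and Rpph1. Nasp, Rn7sk and Rpph1 are highest with 15d-PGJ2, while the other 5 are highest in control.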

How the data were processed

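RNA of 9 libraries was extracted with Trizol and prepared with Illumina's TruSeq RNA kit, per the labels' protocols; this kit captures RNA by its poly(A) tail, so untailed mRNA may be counted in part only. The authors deposited FPKM values for 18049 genes, per the file headers. The submitters' processing notes name the build mm10 and the aligner BWA without versions; the counting tool is not given in the sources used here. Since FPKM values are not whole reads, count models were left aside. Rows that reached 1 FPKM in 3 or more of 9 libraries (11309) were tested on log2(FPKM + 1) with limma 3.58.1 (R 4.3.3), 2-sided, with an intensity trend and all 9 libraries in 1 fit without covariates; a fold change on this scale understates that of low genes. P-values were adjusted by Benjamini-Hochberg over all tested rows within a contrast, with a threshold of 0.05. The scripts were tested on simulated data. Ratios of means and sums used FPKM as deposited.

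Reads behind a value were estimated from the smallest steps of FPKM in 80 genes with whole multiples (tolerance 0.06 of a step), as 5.65 M reads per library and a length reduced by 36.1 bases; they cover counting error only. Models with a span of 1000 bases or more got no estimate. Sequences came from GENCODE transcripts and RefSeq promoter windows of GRCm38, the assembly that mm10 names. The members and the 13 gene lists were chosen with earlier results of these data known. Values in all libraries are given for every member that passed in any contrast and for the member with the highest mean of each class; from each list, up to 4 genes with the smallest p against control per compound may be named, with Slbp, Npat, Casp8ap2, H3f3a, H3f3b, H2afz, H2afx and H1f0 regardless. The alternatives were other pseudocounts, filters and scalings, a fit without trend, a replicate block, fits of 6 libraries, every row counted, and leaving out each library. Chosen after the data were seen, a further alternative summed 4 pairs of members that share at least 80% of each other's 50-base stretches.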

Additional observations from a re-analysis of the deposited data

How the results depend on the processing

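Of the 14 histone calls between 15d-PGJ2 and control, 9 held under every alternative that tested the gene, as did 7 of 12 between the compounds and neither of the 2 between 15d-PGJ2-PC and control; no call changed direction. The count higher with 15d-PGJ2 than in control (12) ran from 10 to 13 when 1 library was left out, and the count lower (2) from 1 to 4; the latter was 4 without 15d-PGJ2 library 1 and 1 without control library 1, control library 2 or 15d-PGJ2 library 2. It was also 1 with a pseudocount of 0.1, without a filter, with quantile normalization and in a fit of 6 libraries. For 15d-PGJ2-PC against control, the count higher (1) ran from 0 (without 15d-PGJ2-PC library 3) to 3 (without 15d-PGJ2-PC library 1 or 2) and was 0 without a filter or with a minimum of 5 FPKM; the count lower (1) ran from 0 (without control library 1 or 3) to 2 (without 15d-PGJ2-PC library 1), was 0 without a filter and 3 in a fit of 6 libraries. Between the compounds, the count higher with 15d-PGJ2-PC (1) ran from 1 to 2 (without 15d-PGJ2-PC library 2), and the count lower (11) from 8 to 10, or 6 without a filter. With near-identical copies summed, an alternative chosen after seeing the data, the count higher with 15d-PGJ2-PC than in control was 2, and the other counts were within 1 of those reported. The cause of these moves was not tested. With the replicate number as a block, the counts were 14 higher and 3 lower with 15d-PGJ2, 1 and 2 with 15d-PGJ2-PC, and 2 higher and 10 lower with 15d-PGJ2-PC than with 15d-PGJ2. Deviations of libraries of the same number had correlations of -0.043 to 0.052, and those of different numbers -0.07 to 0.098. Between control and treated libraries, the range was 0.014 to 0.052 for the same number and -0.057 to 0.037 for different numbers. The numbers are taken as names only, but correlations over all tested rows cannot exclude a pairing that acts on some of them. Depth limits the 17 members with fewer than 10 reads per library.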
